A study of Mus musculus with 83 samples.

Results

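The 44 genes described here encode the DNA replication machinery: the helicase, origin licensing and helicase activation factors, the sliding clamp and its loader, the single-strand binding protein, the primase, the replicative polymerases, lagging strand enzymes and ribonucleotide reductase. They were taken by gene symbol, from a list drawn up with earlier results of these data known, as 44 of the 55367 rows in the count tables of B8 cells and 43 of the 27752 in those of C64 cells, where Gmnn has no row. The measurement was CUT&Tag for Pol II: an antibody brings a transposase to its target so that nearby DNA is tagged and sequenced. All libraries came from mouse embryonic stem cells with GFP-tagged histone H3.3 and a degron on both copies of the TATA-binding protein (mAID-TBP), so that indole-3-acetic acid (IAA) triggers destruction of the protein. C64 carries the mAID-TBP knock-in made in JM8.N4 cells. The paper's resources also list for C64 a HaloTag knocked in at the C-terminus of Rpb1, the largest Pol II subunit. B8 is 1 clone of C64, and so shares these tags, whose Tbpl1 locus was removed. Tbpl1 encodes TRF2, a relative of TBP.

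The 24 Pol II libraries fell into 10 kinds of sample. Run 2 held 2 libraries each of C64 control, C64 with 500 µM IAA for 6 h, C64 after a heat shock of 30 min at 42 °C, and C64 given IAA for 6 h and then the heat shock with IAA still present. Run 3 held 2 libraries each of C64 control, IAA for 16 h, retinoic acid for 16 h and both agents together for 16 h. The sources differ on the retinoic acid concentration. For B8 there were 2 control and 2 IAA (6 h) libraries in each of run 6 and run 8. The columns of run 2 carry no replicate number, so their libraries are called a (a 2 follows the condition in the column name) and b.

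DNA replication starts when the origin recognition complex, Cdc6 and Cdt1 load the MCM helicase onto origins, a step called licensing. Cdc45 and the GINS complex then activate the helicase, primase lays down primers, and polymerases held by the PCNA clamp copy the strands while RPA covers the single-stranded DNA. Many of these genes are textbook targets of E2F transcription factors and are transcribed towards S phase, and embryonic stem cells, which cycle fast with a short G1 phase, express most of them throughout.

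The 16 C64 libraries held 3854622 to 5056322 gene counts, the 4 libraries of B8 run 8 held 2330887 to 2523832, and the 4 of B8 run 6 held 900651 to 1157308, which resolves small changes least. Replicate pairs had log2 CPM correlations of 0.953 to 0.987, the lowest being the B8 controls of run 6. The heat shock marker Hsph1 stood at 90.6 and 92.6 CPM (counts scaled by library size and TMM factor) in the run 2 controls and at 1744 and 1245 CPM after heat shock. Tbpl1 stood at 16.0 and 6.23 CPM in the same controls and at no more than 4.37 CPM in the 8 B8 libraries. Of 10 embryonic stem cell markers, Sox2 was at 0 in every library. Overlap with other genes was not checked for the markers, so a 0 in them does not bound occupancy. Summed over the list, the markers reached 1332 and 1557 CPM in the run 2 controls and 2330 and 2467 CPM after heat shock. Most of each sum was Esrrb (779 and 938 CPM, then 969 and 1117 CPM) and Tfcp2l1 (419 and 485 CPM, then 1184 and 1163 CPM). The 9 markers tested had a median log2 fold change of 0.38, from 0.0009 to 1.41. Of these, Tfcp2l1 was called (1.41 ± 0.25, adjusted p = 0.00681). The 4 neuroectoderm markers summed to 90.9 and 103 CPM in those controls and to 142 and 194 CPM after heat shock, where Nes was called (1.07 ± 0.24, adjusted p = 0.0242) and Sox1 was at 0 throughout. The 6 primitive endoderm markers summed to 1026 and 1568 CPM and then to 967 and 992 CPM. Most of this was Lama1 (796 and 1296 CPM, then 706 and 776 CPM). The 4 mesoderm markers summed to 39.3 and 41.5 CPM and then to 43.4 and 62.1 CPM, and the 5 fibroblast markers to 22.2 to 52.1 CPM over all libraries. The part of these shifts in the results below was not tested.

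Promoters of the members are shown first, because Pol II is loaded there and the members differed in their response to heat shock. In RefSeq (GRCm38.p6), 36 of the 44 members had a promoter entry, a 300-base window around a gene's start. The E2F-type letters searched, on both strands, were TTTCGCGC, then TTTGGCGC, then TTTCCCGC and finally TTTGCCGC. The CCAAT box, which NF-Y binds, was searched on both strands as well. E2F-type letters were found for 16 of the 36 members (44.4%), against 2.26% of all 32851 promoters and 2.6% of genes, and CCAAT for 24 of 36 (66.7%), against 37.4% of promoters and 41.1% of genes. The letters GAANNTTC, the core of a heat shock element, were found for 2 of 36 members (5.56%; Mcm5 and Pcna) and in 7.86% of promoters, and TATAAA for 3 of 36 (8.33%) and in 13.6%. E2F-type matches on opposite strands can overlap, as they do in Mcm5.

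The promoters of Mcm3 (chr1:20820263-20820562 (minus strand)), Mcm5 (chr8:75109259-75109558 (plus strand)) and Orc1 (chr4:108579204-108579503 (plus strand)) are printed for 3 members that gained Pol II after heat shock with and without IAA, and that of Orc5 (chr5:22550289-22550588 (minus strand)) for a member whose value lay on the other side of 0. Capitals mark the letters of E2F type, CCAAT on either strand and, in Mcm5, GAANNTTC, which runs into the E2F-type letters. The Orc5 window held none of these letters. The 4 windows shown do not stand for the other members. Orc3 and Pola1, also below 0 after heat shock, held E2F-type letters, and Rfc1, below 0 as well, held CCAAT. Mcm2, Mcm10, Rpa2 and Rpa3, all called higher, held no E2F-type letters.
Mcm3: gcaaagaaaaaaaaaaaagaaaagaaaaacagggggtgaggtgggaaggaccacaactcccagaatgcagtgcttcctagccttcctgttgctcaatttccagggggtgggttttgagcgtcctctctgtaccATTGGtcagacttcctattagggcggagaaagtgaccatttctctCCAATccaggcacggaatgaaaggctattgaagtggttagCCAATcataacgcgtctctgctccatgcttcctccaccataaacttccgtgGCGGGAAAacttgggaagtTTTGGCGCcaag
Mcm5: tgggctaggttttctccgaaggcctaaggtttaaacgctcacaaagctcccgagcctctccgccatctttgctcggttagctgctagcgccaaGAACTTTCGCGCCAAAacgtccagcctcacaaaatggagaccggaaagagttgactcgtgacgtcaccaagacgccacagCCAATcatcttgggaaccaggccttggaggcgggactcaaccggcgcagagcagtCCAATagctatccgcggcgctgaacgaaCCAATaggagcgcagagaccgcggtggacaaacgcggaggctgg
Orc1: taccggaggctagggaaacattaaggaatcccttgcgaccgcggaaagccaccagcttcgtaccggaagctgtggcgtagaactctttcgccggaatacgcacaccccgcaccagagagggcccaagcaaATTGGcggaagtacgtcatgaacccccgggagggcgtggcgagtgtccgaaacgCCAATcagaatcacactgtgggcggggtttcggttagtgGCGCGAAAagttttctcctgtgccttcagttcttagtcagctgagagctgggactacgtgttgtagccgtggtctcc
Orc5: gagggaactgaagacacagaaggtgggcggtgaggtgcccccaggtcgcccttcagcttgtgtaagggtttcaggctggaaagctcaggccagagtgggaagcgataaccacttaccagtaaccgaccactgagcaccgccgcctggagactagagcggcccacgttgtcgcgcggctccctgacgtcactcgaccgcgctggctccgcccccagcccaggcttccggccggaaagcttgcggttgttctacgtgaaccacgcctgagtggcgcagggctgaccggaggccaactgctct

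Of the members called higher after heat shock, 9 had a promoter entry, with E2F-type letters in 5 (Cdc6, Mcm3, Mcm5, Mcm6 and Orc1) and CCAAT in 8. Of those tested and not called, 26 had an entry, with E2F-type letters in 10 and CCAAT in 16. Pole, called lower, had no entry. On the deposited lists of promoters with and without a TATA box, 5 members (Mcm10, Gins1, Rpa3, Pole2 and Rrm2) were listed with a TATA box, 38 without and 1 (Orc2) in neither list. The 3 members in which TATAAA was found (Cdc45, Fen1 and Pold2) were all listed without a TATA box, so the search and the lists differed.

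In unstressed C64 cells the helicase genes Mcm7, Mcm5 and Mcm3 carried the most Pol II per length among the members. Mean levels in the run 2 controls were 18.2 CPM per kb of gene for Mcm7, 16.1 for Mcm5 and 15.1 for Mcm3. Pcna, the sliding clamp, followed with 9.55, above the remaining helicase genes, of which Mcm6 had 7.99. At the low end Mcm8, a helicase of recombination, had 0.664 CPM per kb, Rfc3, a clamp loader subunit, 0.581 and Rpa3, the small RPA subunit, 0.364. The 3 leading genes lay close together against the spread of Mcm5, whose 2 controls were at 236 and 370.2 CPM. Cdt1 and Gins2 had 0 counts in all 24 libraries. Their spans lie wholly (100%) within that of Galnt2l in the annotation used, and fragments over more than 1 gene were not assigned, so a 0 here does not bound their occupancy. The same rule removes fragments over the shared part of Fen1 (67.7% of its span), Orc1 (63.3%, shared with Gm12743) and Orc2 (45%, shared with Nif3l1), while no more than 10.5% of any other member is shared.

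Heat shock raised Pol II over 10 members, 6 of them helicase genes. Of 41 members tested against control, 10 were higher and 1 was lower at an adjusted p under 0.05 (edgeR quasi-likelihood test, Benjamini-Hochberg over all genes), where 1.57% of all 16332 genes tested were higher and 1.46% were lower. The members higher were Mcm2, Mcm3, Mcm4, Mcm5, Mcm6, Mcm10, Orc1, Cdc6, Rpa2 and Rpa3, and the member lower was Pole. The median log2 fold change was 0.41 over the members and 0.03 over all genes tested, with 32 members above 0 and 9 below. At an unadjusted p under 0.05, 16 members were higher and 3 were lower. In bulk cells, a larger share of cells with Pol II on a gene and more Pol II per cell cannot be told apart, and the replicates measure only the spread between these libraries.

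**Figure D1:**
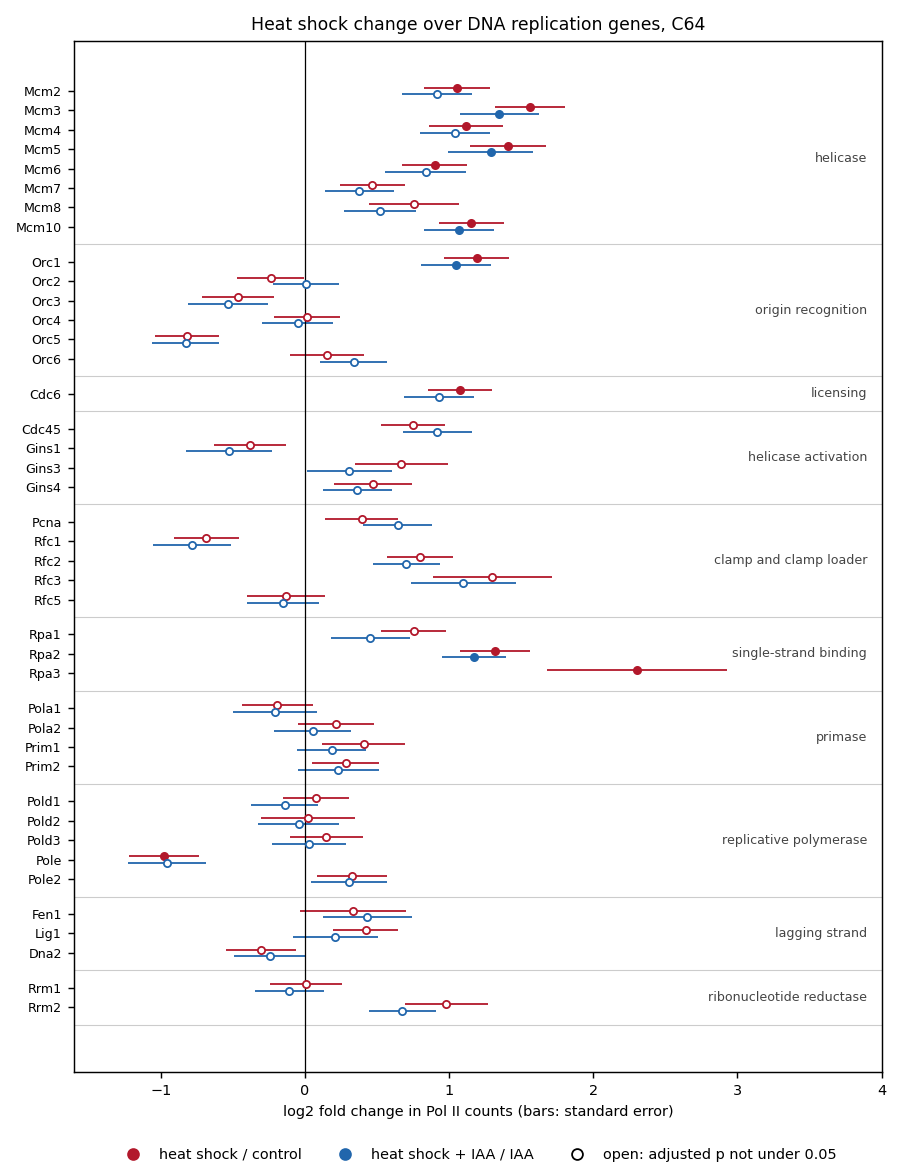
Log2 fold change in Pol II counts after heat shock for each member tested, ordered by role, without IAA (red, heat shock against control) and with IAA (blue, heat shock + IAA against IAA), with bars of 1 standard error. Filled points passed an adjusted p of 0.05; the helicase genes lie right of 0 in both comparisons, and Pole and Orc5 lie left of it in both.

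Of the 8 helicase genes, 6 were called higher, and the median log2 fold change of the group was 1.09. Mcm3, a subunit of the MCM ring, had 244 and 281 CPM in the controls and 804 and 711 CPM after heat shock, a log2 fold change of 1.56 ± 0.24 (adjusted p = 0.00304). Mcm5, which forms the ring's entry gate with Mcm2, had 236 and 370.2 CPM before and 816 and 763 CPM after (1.41 ± 0.26, adjusted p = 0.00838). Both heat shock libraries lay above both controls for these genes, although the Mcm5 controls were far apart. Mcm2 rose from 96.0 and 122 CPM to 234 and 209 CPM (1.05 ± 0.23, adjusted p = 0.0186). Mcm6, another ring subunit, rose from 215 and 234 CPM to 394 and 425 CPM (0.90 ± 0.23, adjusted p = 0.0413). Mcm4 had uneven heat shock libraries, with 83.8 and 85.6 CPM in the controls and 224 and 134 CPM after heat shock (1.12 ± 0.26, adjusted p = 0.0246), but without overlap. Mcm10, which is needed to fire the loaded helicase, had 81.0 and 96.5 CPM before and 203 and 184 CPM after (1.15 ± 0.22, adjusted p = 0.00991). The remaining ring subunit, Mcm7, had 137 and 148 CPM in the controls and 214 and 172 CPM after heat shock (0.47 ± 0.23, adjusted p = 0.326), and neither it nor Mcm8 (0.75 ± 0.31, adjusted p = 0.232) passed.

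Among the genes that load the helicase, the origin recognition complex was uneven. Orc1, its cell cycle regulated ATPase subunit, rose from 63.3 and 69.6 CPM to 159 and 138 CPM (1.19 ± 0.22, adjusted p = 0.00831), measured over the part of the gene that no other gene shares. Its partner Orc5 had 118 and 124 CPM in the controls and 61.1 and 73.4 CPM after heat shock, both lower, but did not pass (-0.82 ± 0.22, adjusted p = 0.0564). The other 4 subunits ranged from -0.46 (Orc3) to 0.15 (Orc6) on the log2 scale, none past the threshold. Cdc6, the ATPase that completes the loading complex, rose from 112 and 101 CPM to 221 and 219 CPM (1.07 ± 0.22, adjusted p = 0.0125), with the tightest heat shock pair of the members called. Of the helicase activators, none of 4 tested passed, and Cdc45 came nearest with 91.3 and 77.0 CPM before and 133 and 143 CPM after (0.75 ± 0.22, adjusted p = 0.0815).

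All 3 genes of the single-strand binding protein RPA lay above 0. Rpa2, its regulatory middle subunit, rose from 38.3 and 42.1 CPM to 115 and 81.3 CPM (1.32 ± 0.24, adjusted p = 0.00767). Rpa3 rose from 1.28 and 1.07 CPM to 5.23 and 6.17 CPM (2.30 ± 0.63, adjusted p = 0.0446), the largest change among the members, but on 5 and 6 counts in the controls and 26 and 29 after heat shock. Rpa1, the large DNA-binding subunit, had 173 and 177 CPM in the controls and 261 and 317 CPM after heat shock (0.76 ± 0.23, adjusted p = 0.0849) and did not pass.

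Of the genes that prime, copy and join DNA, none was called higher. Pole, the catalytic subunit of the leading strand polymerase epsilon, fell from 171 and 153 CPM to 61.9 and 99.0 CPM (-0.98 ± 0.24, adjusted p = 0.0369), both heat shock libraries lying below both controls. The other 4 replicative polymerase genes had log2 fold changes of 0.02 (Pold2, the small subunit of polymerase delta) to 0.33 (Pole2, the second subunit of polymerase epsilon). The 4 primase genes ran from -0.19 (Pola1, the polymerase alpha catalytic subunit) to 0.41 (Prim1, the primase catalytic subunit), and the 3 lagging strand genes from -0.31 (Dna2, a nuclease and helicase) to 0.42 (Lig1, the ligase that joins Okazaki fragments). None of these passed, and none had an unadjusted p under 0.05. In the clamp and clamp loader group Pcna had 0.39 ± 0.25 (adjusted p = 0.493), Rfc2 0.80 ± 0.23 (adjusted p = 0.0714) and Rfc3 1.30 ± 0.41 (adjusted p = 0.106), while Rfc1, the large loader subunit, had -0.68 ± 0.23 (adjusted p = 0.125). Rrm2, the regulated small subunit of ribonucleotide reductase, had 0.98 ± 0.29 (adjusted p = 0.0783) and its partner Rrm1 0.01 ± 0.25.

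**Figure D2:**
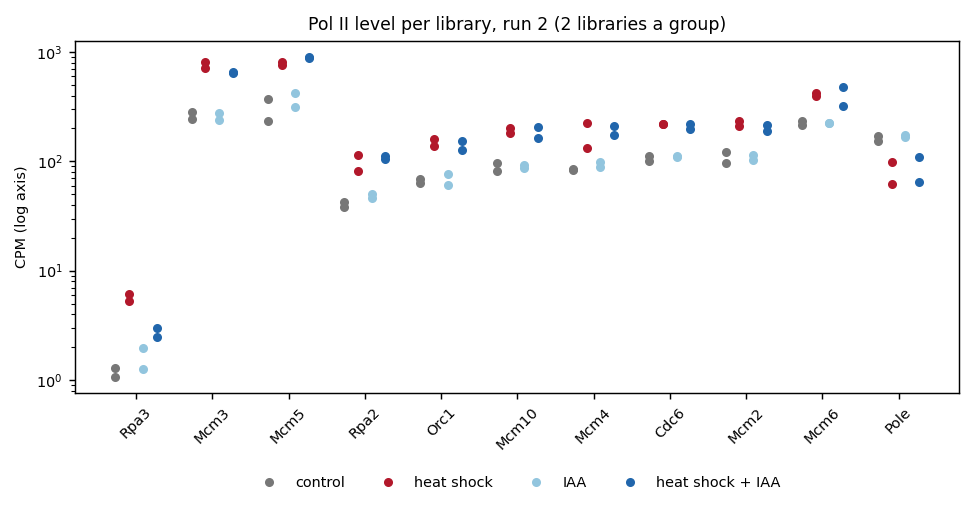
Pol II level (CPM, log axis) of the 11 members called after heat shock, in each run 2 library, with 2 points per group for control, heat shock, IAA and heat shock + IAA. For the 10 members called higher the red and dark blue points lie above the grey and light blue ones, and for Pole they lie below.

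Libraries of run 2 with the same kind of column name deviated together, so the fit with this pairing as a replicate block is given as well. It called 15 members higher and 3 lower, where 3.98% and 4.43% of all genes were called. The members added were Cdc45 (0.75, adjusted p = 0.0159), Rfc2 (0.79), Rfc3 (1.29), Rpa1 (0.75) and Rrm2 (0.97) among those higher, and Orc5 (-0.82, adjusted p = 0.00687) and Rfc1 (-0.69, adjusted p = 0.0309) beside Pole among those lower. The count of members called also rested on single libraries. Leaving out 1 library, which leaves 1 in its group, could lower or raise it.

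The same heat shock was given to cells depleted of TBP. Of 40 members tested in heat shock + IAA against IAA, 5 were higher (Mcm3, Mcm5, Mcm10, Orc1 and Rpa2) and 0 were lower, where 0.698% of 16486 genes were higher and 0.704% lower. The 0 lower is from edgeR's quasi-likelihood test, while 3 members were lower at an unadjusted p under 0.05, 2 by edgeR's likelihood-ratio test and 1 by DESeq2. The median over the members was 0.32, against 0.02 over all genes. Each of the 5 was also called without IAA. Over the 40 members tested in both comparisons, which share no library, 35 had the same sign and the fold changes had a Pearson correlation of 0.977, while over 16096 genes 12347 had the same sign with a correlation of 0.744; genes are not independent replicates.

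Mcm3 had 239 and 277 CPM with IAA and 643 and 663 CPM with IAA and heat shock (1.35 ± 0.27, adjusted p = 0.0295). Mcm5 went from 314 and 420.0 CPM to 907 and 876 CPM (1.29 ± 0.29, adjusted p = 0.0495). Rpa2 went from 46.4 and 49.9 CPM to 111 and 104 CPM (1.17 ± 0.22, adjusted p = 0.0231). In all 3 genes both heat-shocked libraries were above both others. Mcm10 went from 87.1 and 92.5 CPM to 165 and 208 CPM (1.06 ± 0.24, adjusted p = 0.0484), and Orc1 had 1.05 ± 0.24 (adjusted p = 0.0494); both sat close to the threshold. Just past it lay Mcm4 (1.04 ± 0.24, adjusted p = 0.0525), Cdc6 (0.93 ± 0.24, 0.0709) and Mcm2 (0.92 ± 0.24, 0.0752). Pole had 168 and 175 CPM with IAA and 65.2 and 110.1 CPM with heat shock and IAA, lower in both libraries but not past the threshold (-0.96 ± 0.27, adjusted p = 0.0935). The replicate block called 12 members higher and 3 lower (Orc5, Rfc1 and Pole), where 3.81% and 5.95% of genes were called. Leaving out either IAA library lowered the count of members higher, and leaving out either heat shock + IAA library raised it. Each of these fits leaves 1 library in a group.

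Whether IAA changed the heat shock response was tested as an interaction. No member passed (0 of 41, where 0% of 16961 genes passed; edgeR's quasi-likelihood test, 0 members at an unadjusted p under 0.05, and 0 by the likelihood-ratio test and by DESeq2). For Mcm3 the heat shock change with IAA minus that without was -0.18 ± 0.29 (95% interval -0.82 to 0.45), for Orc1 -0.11 ± 0.29 (-0.74 to 0.52) and for Pole 0.05 ± 0.37 (-0.77 to 0.86). The interval lay within a 2-fold change in either direction for 30 of the 41 members. Rpa3 had the lowest value, -1.50 ± 0.80 (-3.25 to 0.25), and its counts with IAA and heat shock were 13 and 14. All intervals are relative to the other genes, since a change common to every gene is removed by TMM scaling.

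Among the members the heat shock change went with gene span. Over the 41 members, span and log2 fold change had a Spearman rho of -0.46, and over all genes tested -0.087; this is a description across genes that share the same libraries. The 11 members of 10 to 20 kb had a median of 1.05 with 6 called higher, where all genes of that class had a median of 0.07. The 7 members of 40 to 80 kb (Orc2, Orc3, Orc4, Orc5, Rfc1, Rpa1 and Pole) had a median of -0.46 with 2 above 0, where all genes of that class had -0.01. With IAA the members' rho was -0.44. Members below 0 included Rfc1 (73821 bases), Orc5 (63945) and Pole (51169), while Rpa1 (50159) and Prim2 (215986) were above it. The counts cover the whole gene, so Pol II at the start and Pol II further along cannot be told apart.

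**Figure D3:**
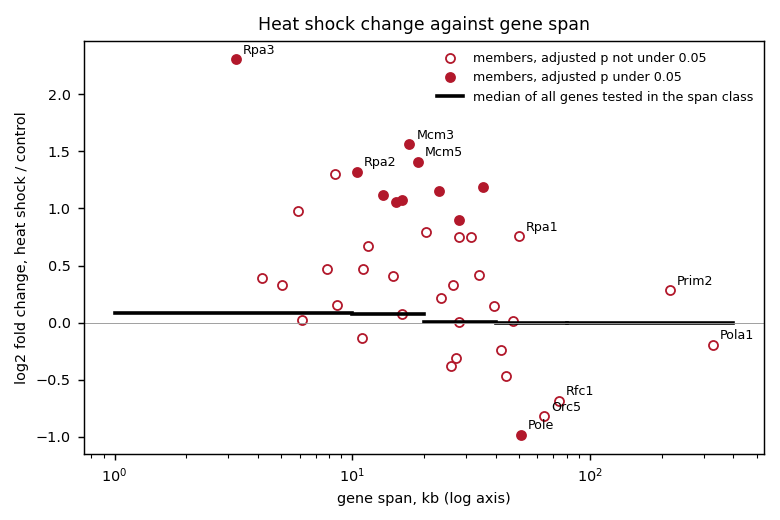
Log2 fold change after heat shock against gene span (log axis, kb) for the 41 members tested; filled points passed an adjusted p of 0.05, and black lines are medians of all genes tested in 5 span classes. The members of 40 to 80 kb lie mostly below 0 while the lines stay near it.

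TBP depletion without stress moved no member of C64 past the threshold, although Hspa8, a heat shock cognate gene, fell (-1.73 ± 0.15, adjusted p = 0.00395). The list leaves out the clamp loader gene Rfc4, which had -1.08 ± 0.16 after 6 h of IAA and is described at the end. The absence of a call thus holds for the listed genes only. After 6 h of IAA, 0 of 40 members were called by edgeR's quasi-likelihood test, where 0.0433% of 16157 genes were (7, all lower), and likewise 0 by the likelihood-ratio test and by DESeq2; 1 member had an unadjusted p under 0.05. The log2 fold changes ran from -0.19 to 0.48 with a median of 0.03, and the 95% interval lay within a 2-fold change for 39 of the 40. Among the genes with the smallest p, Prim1 had 19.7 and 22.4 CPM in the controls and 27.0 and 31.04 CPM with IAA (0.48 ± 0.21, adjusted p = 0.99997). Pole2 had 41.9 and 37.8 CPM and 49.5 and 52.7 CPM (0.37 ± 0.17, adjusted p = 0.99997), and Rpa2 38.3 and 42.1 CPM and 46.4 and 49.9 CPM. These 3 genes were picked for the smallest p, so how their libraries lay is not read as a result.

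Mcm5, picked out after its values were seen, was higher with IAA in every pair of C64 libraries that share a number or kind of column name. It had 236 and 370.2 CPM in the run 2 controls and 314 and 420.0 CPM with IAA, and 816 and 763 CPM after heat shock against 907 and 876 CPM with IAA as well. In run 3 it had 371 and 231 CPM in the controls and 445 and 259 CPM with IAA. The difference with IAA in retinoic acid had the same sign in both pairs and is given with that comparison. Of 40 members tested in all 4 comparisons, Mcm5 alone was higher in all 8 pairs and 0 were lower in all 8, where 0.926% of 15652 genes were higher and 3.34% were lower. Without the block Mcm5 did not pass in any of them, and with it the adjusted p was 0.068 after 6 h (0.30 ± 0.09), 0.491 in heat shock (0.19 ± 0.09) and 0.348 after 16 h (0.23 ± 0.11). In B8 the mean Mcm5 level was lower with IAA in both runs, with overlap between the groups. It went from 139.9 to 119.0 CPM in run 6 and from 259.9 to 238.5 CPM in run 8.

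In heat-shocked cells, IAA left 0 of 41 members past the threshold (0% of 16628 genes; 0 members at an unadjusted p under 0.05, and 0 by the likelihood-ratio test and DESeq2), with 36 of 41 intervals within a 2-fold change. Rpa3 had the smallest p, with 5.23 and 6.17 CPM after heat shock and 2.48 and 2.96 CPM with IAA added (-1.05 ± 0.53, adjusted p = 0.99999), lower in both libraries. Pole2 had 50.5 and 47.3 CPM and 46.2 and 79.4 CPM (0.37 ± 0.29), and the groups overlapped. Orc2 had 48.1 and 54.5 CPM and 58.4 and 65.9 CPM (0.29 ± 0.23). After 16 h of IAA in run 3, 0 of 40 members passed (0% of 16349 genes; 0 at an unadjusted p under 0.05, and 0 by the other tools), with 34 intervals within a 2-fold change. The smallest p was that of Pole2, with 36.7 and 41.1 CPM in the controls and 54.0 and 52.7 CPM with IAA, without overlap (0.47 ± 0.21, adjusted p = 0.99938). Next came Pold1, the polymerase delta catalytic subunit (51.8 and 44.2 CPM against 63.6 and 58.6 CPM, 0.36 ± 0.20), and Gins4, a GINS subunit (35.2 and 27.6 CPM against 25.6 and 21.8 CPM, -0.39 ± 0.24).

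Retinoic acid, which drives embryonic stem cells out of the pluripotent state, left every member under the threshold when the libraries were compared as groups: 0 of 40 were called, where 0.0183% of 16350 genes were (edgeR's quasi-likelihood test, with 1 member higher and 1 lower at an unadjusted p under 0.05, and 0 by the likelihood-ratio test and by DESeq2). Stra8, a retinoic acid target, rose (3.77 ± 0.29, adjusted p = 0.0281). The other gene chosen as a check, Cyp26a1, had 9.45 and 9.11 CPM in the controls and 13.2 and 8.24 CPM with retinoic acid. Its groups overlapped. Libraries of run 3 with the same replicate number deviated together, and the fit with the replicate block called 5 of the 40 members, where it called 11.4% of all genes. The share of members called was thus near that of all genes. Orc5 had 134 and 110.5 CPM in the controls and 85.2 and 66.1 CPM with retinoic acid, lower in both pairs (-0.68 ± 0.22, adjusted p = 0.705; with the block -0.68 ± 0.13, adjusted p = 8.65e-06). Rpa1 had 179 and 133 CPM and 257 and 208 CPM, higher in both pairs (0.59 ± 0.23, adjusted p = 0.805; with the block 0.59 ± 0.11, adjusted p = 1.32e-05). Mcm10 had 107 and 73.4 CPM and 73.8 and 54.0 CPM, with overlap between the groups and a fall within each pair (-0.49 ± 0.26, adjusted p = 0.878; with the block -0.48 ± 0.14, adjusted p = 0.00849). Mcm3 (325 and 221 CPM against 249 and 145 CPM; with the block -0.49, adjusted p = 0.000504) and Rrm1, the large subunit of ribonucleotide reductase (62.9 and 55.1 CPM against 89.4 and 66.4 CPM; with the block 0.40, adjusted p = 0.0483), were the other members it called.

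With TBP depleted, retinoic acid again left 0 of 40 members past the threshold (0% of 16395 genes; 1 member at an unadjusted p under 0.05, and 0 by the likelihood-ratio test and by DESeq2). Rpa1 had 156 and 144 CPM with IAA and 239 and 205 CPM with both agents, without overlap (0.58 ± 0.19, adjusted p = 0.99986). Gins4 had 25.6 and 21.8 CPM and 32.4 and 30.5 CPM (0.42 ± 0.26), and Orc5 113 and 93.9 CPM and 92.8 and 66.7 CPM (-0.36 ± 0.23). Orc5 was thus lower within both pairs, though its groups lay close. Comparing both agents with retinoic acid alone gave 0 of 40 (0% of 16439 genes; 0 members at an unadjusted p under 0.05, and 0 by the other tools). The smallest p there belonged to Rpa2 (32.5 and 28.8 CPM against 41.0 and 37.9 CPM, 0.38 ± 0.23), Lig1 (0.37 ± 0.29) and Gins1, a GINS subunit (0.29 ± 0.25). With the block 1 member passed, Mcm5 (354 and 187 CPM against 442 and 244 CPM; 0.36 ± 0.09, adjusted p = 0.0249), where 1.04% of genes were called. The interaction of retinoic acid with IAA gave 0 of 40 members (0% of 17032 genes; 0 at an unadjusted p under 0.05, and 0 by the other tools), ranging from -0.54 (Pole2) to 0.41, with 18 intervals within a 2-fold change.

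In B8 cells, which lack TRF2, IAA lowered 1 member of 38 tested, Mcm3, where 3.29% of 13675 genes were lower and 2.39% higher. The share of members lower was near that of all genes. In run 6 the Mcm3 controls had 144 and 76.7 CPM and the IAA libraries 69.8 and 67.4 CPM, and in run 8 the controls had 229 and 238 CPM and the IAA libraries 147 and 186 CPM. The IAA libraries lay below the controls within each run, and the change was -0.58 ± 0.15 with run as a block (adjusted p = 0.0429; -0.76 in run 6 alone, adjusted p = 0.355, and -0.46 in run 8 alone, adjusted p = 0.000898). This call was lost without each of the other 7 libraries in turn (adjusted p 0.0613 to 0.1499) and held without control library 2 of run 6 (4.71e-05), the library of the least correlated pair. Next to the threshold, Orc5 had 161 and 148 CPM in the run 8 controls and 101 and 87.6 CPM with IAA, and 77.0 and 66.9 against 68.9 and 69.0 CPM in run 6 (-0.45 ± 0.13, adjusted p = 0.0705). Rfc2 had 53.2 and 35.4 against 99.7 and 96.2 CPM in run 6 and 49.5 and 49.0 against 55.5 and 49.8 CPM in run 8, so its value (0.56 ± 0.18, adjusted p = 0.0957) rested mainly on run 6.

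The runs differed in what they resolved. Run 8 alone, with more than 2 times the counts of run 6, called 7 members, where 18% of 14836 genes were called: Mcm3, Orc3 (-0.29), Orc5 (-0.69), Rfc1 (-0.30) and Pola1 (-0.44) were lower, and Pcna (0.58) and Rpa2 (0.60) higher. Run 6 alone called 0 members, where 0.121% of 12385 genes were called. The share of members called in run 8, 7 of 40 tested there, was near that of all genes. Without control library 2 of run 6 the joint fit of both runs called 4 members, and the share of all genes called by that fit is not given here.

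The IAA change in B8 minus that in C64 was tested over 39 members and 0 passed (0.0913% of 15338 genes did; edgeR's quasi-likelihood test, 2 members at an unadjusted p under 0.05, and 0 by the likelihood-ratio test and by DESeq2). Mcm3 had -0.56 ± 0.24 (95% interval -1.07 to -0.06, adjusted p = 0.642), Rfc2 0.75 ± 0.29 (0.13 to 1.36, adjusted p = 0.583) and Orc5 -0.44 ± 0.22 (-0.89 to 0.01, adjusted p = 0.727), and 30 of 39 intervals lay within a 2-fold change. Mcm3 is therefore not shown to respond differently in B8 and C64.

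**Figure D4:**
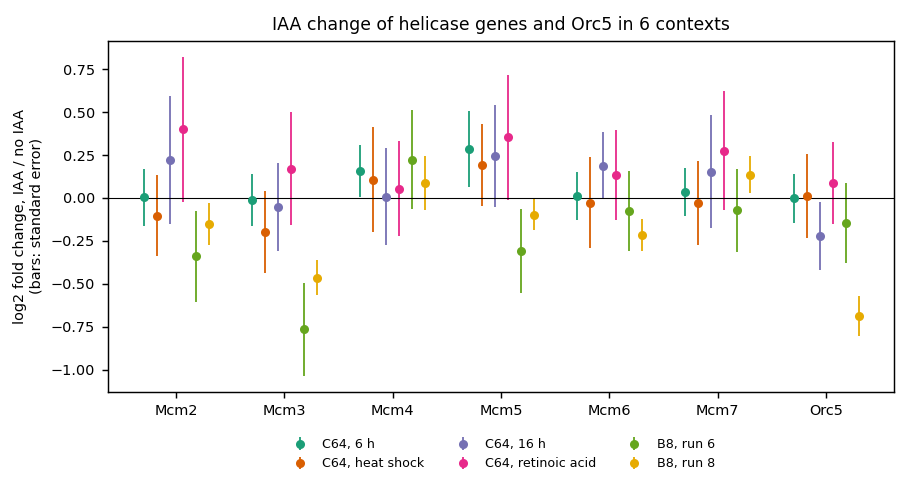
Log2 fold change with IAA (bars: 1 standard error) of 6 helicase genes and Orc5 in 6 contexts: C64 after 6 h, in heat shock, after 16 h and with retinoic acid, and B8 in run 6 and run 8. The C64 points of Mcm3 lie between -0.20 and 0.17 and those of Mcm5 between 0.19 and 0.35, while the B8 points of Mcm3 lie at -0.76 and -0.46. Mean Mcm5 levels in B8, lower with IAA in both runs, are given in the text.

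Between untreated B8 and untreated C64 cells, 0 of 39 members passed (0% of 14622 genes; edgeR's quasi-likelihood test, 3 members lower at an unadjusted p under 0.05, and 0 by the likelihood-ratio test and by DESeq2). The fit used the C64 controls of run 2, and cell line and run cannot be told apart in it. Mcm4 had 83.8 and 85.6 CPM in C64 run 2, 97.1 and 63.8 in C64 run 3, 39.3 and 33.4 in B8 run 6 and 59.7 and 53.1 in B8 run 8, all B8 values lying below those of C64 (-0.81 ± 0.23, adjusted p = 0.784). Rrm2 had -0.73 ± 0.30 and Gins1 -0.44 ± 0.19. The median over the members was -0.13, against 0.02 over all genes, with 29 members below 0. Gmnn, which encodes the Cdt1 inhibitor geminin and has C64 counts in this table alone, had 48.3 and 45.8 CPM in C64 run 2, 13.9 and 19.7 CPM in B8 run 6 and 27.8 and 29.8 CPM in B8 run 8, without overlap (log2 fold change -0.97 ± 0.28 over all rows of the table, adjusted p = 0.806).

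**Figure D5:**
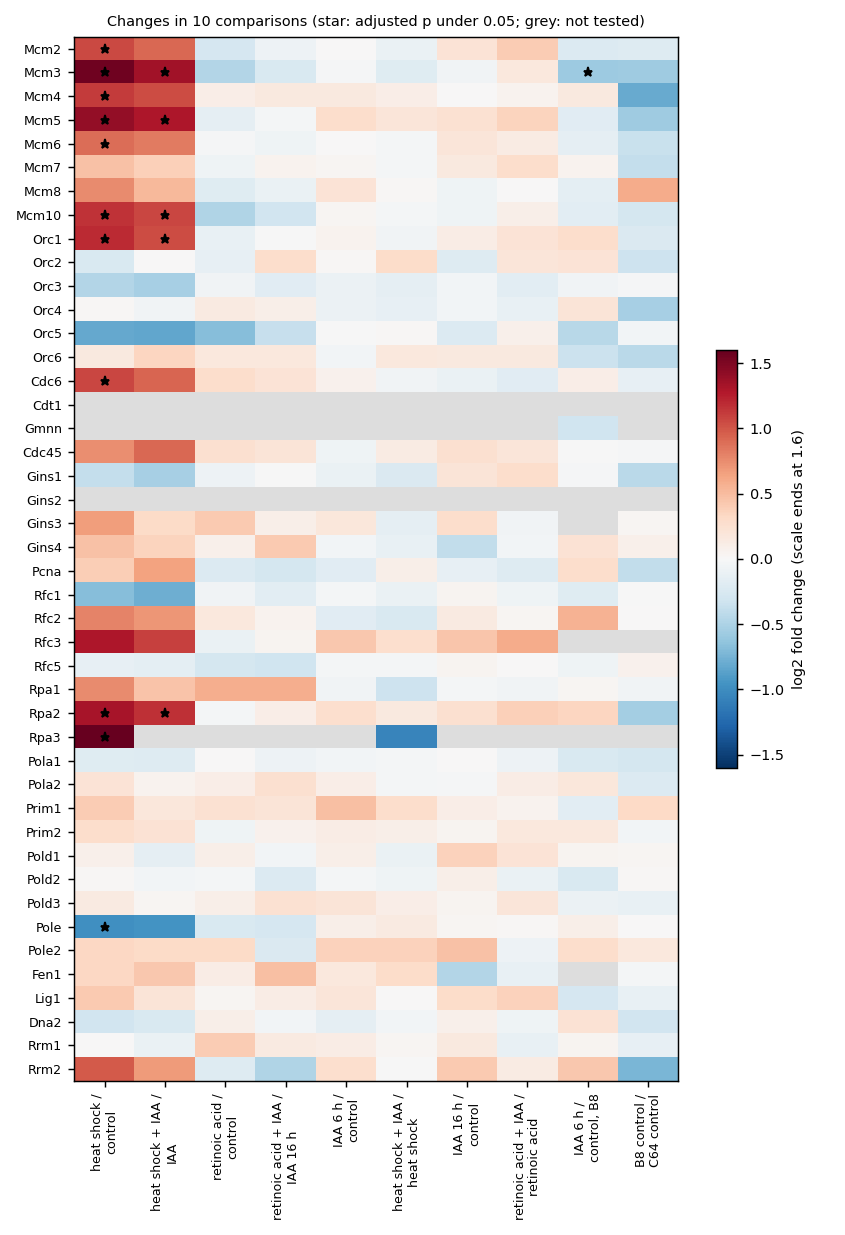
Log2 fold change of each member (rows, by role) in 10 comparisons (columns), red for higher and blue for lower with the scale ending at 1.6; stars mark an adjusted p under 0.05 and grey cells were not tested. The stars stand in the heat shock columns (10 higher and 1 lower, and 5 higher with IAA), apart from 1 for Mcm3 in B8.

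Genes around the machinery were read from lists that did not include the members. Of all genes tested, 1.57% were higher and 1.46% lower after heat shock, and 0.698% and 0.704% with IAA. Of 26 other replication factors tested after heat shock (checkpoint, cohesion, chromatin assembly and licensing partners), 0 were called by edgeR's quasi-likelihood test (6 at an unadjusted p under 0.05; median 0.16), 3 by the likelihood-ratio test and 2 by DESeq2. With IAA, 7 of 26 had an unadjusted p under 0.05, and 0, 2 and 1 were called by the same tools. Of 14 genes of nucleotide supply, 1 was higher and 1 lower after heat shock: Shmt1, which feeds thymidylate synthesis, with 1.14 ± 0.24 (adjusted p = 0.0152), and the salvage kinase gene Dck with -1.21 ± 0.24 (adjusted p = 0.0104). Of 24 regulators of the G1/S transition 1 was higher, Cdkn1a, the gene of the Cdk inhibitor p21 (1.02 ± 0.23, adjusted p = 0.0253). Of 22 mitotic genes 1 was lower, the mitotic cyclin gene Ccnb1 (-1.61 ± 0.23, adjusted p = 0.00149), and with IAA 2 were lower, Ccnb1 (-1.68 ± 0.24, adjusted p = 0.00836) and the proliferation marker Mki67 (-1.14 ± 0.25, adjusted p = 0.0444). The list medians after heat shock were 0.16 for nucleotide supply, 0.12 for the G1/S regulators and -0.28 for the mitotic genes, where the 41 members had 0.41.

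In B8 with IAA, 3.29% of all 13675 genes were lower and 2.39% higher. At most 1 gene per direction was called in each list, so these counts are not read as results about the lists. Of 23 other replication factors 1 was lower, Rif1, which sets origin timing (-0.66 ± 0.16, adjusted p = 0.0283). In nucleotide supply Rrm2b, the p53-responsive ribonucleotide reductase subunit, was higher (0.89 ± 0.17, adjusted p = 0.0100) and Ctps, the CTP synthase gene, lower (-0.67 ± 0.15, adjusted p = 0.0198), of 14 tested. Of 21 G1/S regulators E2f3 was higher (0.59 ± 0.13, adjusted p = 0.0160) and Cdkn1a lower (-0.99 ± 0.16, adjusted p = 0.00304). Of 22 mitotic genes Top2a, the topoisomerase that untangles chromosomes, was lower (-0.48 ± 0.11, adjusted p = 0.0188), and of 5 stem cell markers Esrrb was lower (-0.51 ± 0.11, adjusted p = 0.0196).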

How the data were processed

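The deposited values are counts of fragments per gene, which the authors made with Bowtie2 alignments to mm10 (GRCm38), PCR duplicates kept and reads subsampled per run, and featureCounts 2.0.0 on whole genes of Ensembl release 102, without strand. Fragments over more than 1 gene were not assigned. The deposited normalization table holds other values, spike-in and mouse read numbers, and was used for alternatives. The 14 column pairs found in more than 1 table did not differ.

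Members were fitted with all genes in edgeR 4.0.16 (R 4.3.3): filterByExpr with a minimum count of 20, TMM, quasi-likelihood F test, Benjamini-Hochberg threshold 0.05. Standard errors and 95% intervals are Wald values of unshrunk coefficients. B8 IAA used run as a block. The likelihood-ratio test and DESeq2 1.42.0 were alternatives, and the fits were tested on simulated data. The members and gene lists were chosen with earlier results of these data known. Values in every library are given for members called after heat shock, for up to 4 members per direction called in other comparisons, and otherwise for the 3 smallest p; members called with the block, and promoters shown, were chosen after their values were seen.

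Pairing was checked from residual correlations of libraries with the same number (run 3) or the same kind of column name (run 2): 0.422 to 0.627 and 0.109 to 0.497 over 6 pairs of groups each, but -0.0554 in B8 run 6 and 0.0011 in B8 run 8. Blocked fits are therefore printed for runs 2 and 3. Which numbered sample each run 2 column holds is not known. Promoters and TATA lists: RefSeq and the deposited lists.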

Additional observations from a re-analysis of the deposited data

How the results depend on the processing

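With 2 libraries a group, the number of members past the threshold depended on the fit more than the fold changes did. Members higher after heat shock (10) were 5 with no low-count filter, and members lower (1) were 0 there and in the joint fit of the run, 2 by the likelihood-ratio test and by DESeq2, and 3 with the replicate block. Of all 16332 genes, in either direction, the main fit called 494, the likelihood-ratio test 792, DESeq2 559 and the block 1373. Leaving out 1 library gave 0 to 16 higher and 0 to 6 lower. Members higher with heat shock + IAA (5) were 8 in the joint fit, 9 with no filter, by the likelihood-ratio test and by DESeq2, 10 on library totals and 12 with the replicate block. Members lower (0) were 1 by DESeq2, 2 with no filter and by the likelihood-ratio test, and 3 with the block. Of all 16486 genes, in either direction, the main fit called 231, the likelihood-ratio test 765, DESeq2 447 and the block 1609. Here too, leaving out 1 library moved both member counts. The shares of all genes called by the other fits are not given here. The member counts without 1 library are therefore not read as results about the members. The direction of each of the 11 members called after heat shock held in every alternative run, Mcm3 between 1.45 and 1.67 and Pole between -1.39 and -0.69.

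The replicate block called 5 members for retinoic acid against control and 1 for retinoic acid + IAA against retinoic acid. The block together with spike-in reads, added after the data were seen, called 1 for retinoic acid + IAA against IAA (Rpa1). In B8 the 1 member called with IAA became 0 with no low-count filter, with no run block, with a replicate block of 4 pairs and in run 6 alone, 3 by the likelihood-ratio test, 7 in run 8 alone and 0 to 4 without 1 library. Of all 13675 genes the main fit called 777 in either direction and the likelihood-ratio test 1179. On library totals the count stayed at 1, but the member called was Rfc2 (0.67, adjusted p 0.0413) and Mcm3 was not (-0.47, adjusted p 0.1062). The 1 value that turned was Pole2 in heat shock + IAA against heat shock, with 0.37 on all libraries and -0.031 to 0.69 without 1 library (the lowest without heat shock + IAA library b). In the comparisons with 0 members called, the other alternatives called 0 too. On library totals the median of all genes in heat shock + IAA against IAA was 0.13.

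Spike-in scaling was not run for run 2, whose columns could not be tied to numbered samples, nor for B8, where 1 library has no row. In run 2 the spike-in reads of samples 1 and 2 would add 0.0914 and 0.0362 to every log2 fold change after heat shock, -0.45 and -0.11 after heat shock with IAA, 1.13 and -0.83 for IAA against control, and 0.59 and -0.97 for IAA in heat shock, so a change common to all genes with IAA could not be read. Of the members tested, Rpa3, Rfc3, Fen1 and Gins3 had the fewest counts, and depth limits B8 run 6 more than the other runs.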

Other observations

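Rfc4, the clamp loader subunit that the gene list leaves out, was the loader gene with the largest IAA values in C64. The paper lists Rfc4 among the genes with lower Pol II occupancy after 6 h of IAA, and proposes that some of those genes may be false positives. It had 189 and 160.4 CPM in the run 2 controls and 89.0 and 74.4 CPM after 6 h of IAA, without overlap (-1.08 ± 0.16, adjusted p = 0.0576 by edgeR's quasi-likelihood test, 1.683e-05 by its likelihood-ratio test, 0.0003073 by DESeq2 and 3.646e-21 with the replicate block). In run 3 it had 179.8 and 116 CPM in the controls and 88.6 and 43.6 CPM after 16 h (-1.14 ± 0.34, adjusted p = 0.99938; with the block -1.18 ± 0.12, adjusted p = 1.047e-18). After heat shock it had 51.9 and 115 CPM (-1.05 ± 0.29, adjusted p = 0.0589, with 0.01897 by the likelihood-ratio test, 0.04131 by DESeq2 and 6.621e-05 with the block), and with IAA as well 37.2 and 52.9 CPM. In B8 the controls had 145 and 105 CPM in run 6 and 147 and 119 CPM in run 8, and the IAA libraries 138 and 122 and 104 and 76.9 CPM (-0.28 ± 0.15, adjusted p = 0.318). The change in B8 minus that in C64 was 0.81 ± 0.25 (adjusted p = 0.407). None of the Rfc4 values given here passed the quasi-likelihood test without the block. Those for 6 h of IAA and for heat shock against control passed by the other tools and with the block. Heat shock + IAA against IAA (-0.85 ± 0.24) passed by the likelihood-ratio test (adjusted p = 0.0416) and with the block, but not by DESeq2 (0.08357). IAA in heat shock (-0.86 ± 0.37) and in retinoic acid (-1.03 ± 0.35) passed with the block only. Neither B8 value passed by any of the 3 tools. The loader subunits among the members had 6 h IAA values of -0.18 (Rfc2) to 0.44 (Rfc3).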
